A study of Mus musculus with 12 samples.

Results

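Protocadherin genes were read from the expression of KP1 mouse cells, which the labels give the cell type LUAD (lung adenocarcinoma). Of the 35013 gene rows, 69 carried a symbol that starts with Pcdh: 13 of the alpha cluster (Pcdha), 22 of the beta cluster (Pcdhb), 22 of the gamma cluster (Pcdhg) and 12 single genes outside the clusters. The 35 rows with 50 or more estimated counts over the 12 libraries are reported, and of these 29 passed the filter on low counts and were tested (9 Pcdhb, 13 Pcdhg and 7 single genes). Another 22 rows held 1 to 49 counts and 12 held none; together they held 451 counts, against 87493 in the 35 reported rows. Pcdhga2, with 50 counts, lay just inside the limit and Pcdhga6, with 49, just outside it.

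The cells carried an empty vector (EV) or overexpressed NRF2, the transcription factor that drives antioxidant genes. Both kinds of cell were given for 16 h either DMSO, the solvent, or romidepsin at 5 nM, which blocks class I histone deacetylases. This made 4 groups of 3 libraries each, named by the submitters as biological replicates: EV cells with DMSO, NRF2 cells with DMSO, EV cells with romidepsin and NRF2 cells with romidepsin. The labels give no promoter for the NRF2 vector and no number of clones. P-values therefore speak for replicate cultures only, which may all come from 1 EV line and 1 NRF2 line. Poly-A RNA was sequenced.

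Protocadherins are cell surface proteins of the cadherin superfamily that bind like molecules on neighbouring cells. The clustered genes lie in rows of variable exons, each with its own promoter; in the alpha and gamma clusters each variable exon is spliced to constant exons shared by the whole cluster, while a beta gene is a single exon. Neurons choose among these promoters in a way that needs the DNA-binding protein CTCF, cohesin and DNA methylation, and so carry different sets of protocadherins. The genes outside the clusters are single transcription units. The delta-1 group, with Pcdh1, Pcdh7 and Pcdh9, has cytoplasmic tails that bind protein phosphatase 1. The delta-2 group, with Pcdh10, Pcdh17, Pcdh18 and Pcdh19, has tails that bind the WAVE complex, which builds branched actin.

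The stretches upstream of 4 single genes are shown because these genes had the largest differences of the single genes: Pcdh18 and Pcdh19 between EV and NRF2 cells, and Pcdh9 and Pcdh17 with romidepsin. Each runs 5′ to 3′ up to the transcription start in RefSeq (GRCm38.p6), with every CG pair in capitals; the Pcdh18 stretch leaves out 9 bases that GENCODE M21 places inside the gene.
Pcdh18, chr3:49757326-49757566, minus strand: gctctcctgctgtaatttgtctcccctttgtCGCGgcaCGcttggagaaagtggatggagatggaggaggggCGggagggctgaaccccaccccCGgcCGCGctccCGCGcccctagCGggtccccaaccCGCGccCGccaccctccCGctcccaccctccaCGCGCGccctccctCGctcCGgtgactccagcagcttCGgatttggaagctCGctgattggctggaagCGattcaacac
Pcdh19, chrX:133688994-133689243, minus strand: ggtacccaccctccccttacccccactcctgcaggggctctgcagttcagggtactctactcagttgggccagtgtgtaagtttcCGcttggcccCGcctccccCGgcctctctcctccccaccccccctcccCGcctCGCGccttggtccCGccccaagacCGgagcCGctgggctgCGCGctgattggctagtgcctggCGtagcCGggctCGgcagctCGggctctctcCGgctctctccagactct
Pcdh9, chr14:93890680-93890929, minus strand: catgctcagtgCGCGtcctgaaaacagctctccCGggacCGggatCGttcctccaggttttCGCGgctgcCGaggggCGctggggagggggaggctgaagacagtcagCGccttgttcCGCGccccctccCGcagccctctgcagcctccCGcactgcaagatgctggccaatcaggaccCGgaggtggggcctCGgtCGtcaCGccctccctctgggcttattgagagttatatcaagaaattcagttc
Pcdh17, chr14:84443313-84443562, plus strand: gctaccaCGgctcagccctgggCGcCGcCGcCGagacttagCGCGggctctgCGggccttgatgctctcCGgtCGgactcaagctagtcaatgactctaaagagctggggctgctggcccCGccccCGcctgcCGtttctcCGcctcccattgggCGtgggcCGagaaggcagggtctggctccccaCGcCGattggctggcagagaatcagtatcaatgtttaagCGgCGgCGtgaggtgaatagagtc

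The printed stretches held 22 (Pcdh18), 16 (Pcdh19), 18 (Pcdh9) and 21 (Pcdh17) CG pairs, and 63.6 to 69.2% of their bases were G or C. Over the 300-base windows that RefSeq gives (250 bases before the start to 50 after it), the 8 promoters of 7 reported single genes had a median of 18.5 CG pairs, against 7 in all 32851 promoters. The core of the antioxidant response element bound by NRF2 (TGACNNNGC, both strands) was in 0 of these 8 windows and in 12.4% of all windows. A set of 8 windows is too small to tell 0 from that share. A TATA box (TATAAA, both strands) was in 1 of the 8, that of Pcdh15, and in 13.6% of all. Pcdh9 has more than 1 of the 8 windows, and these overlap. The promoters of Pcdh1 and of the clustered genes were not analysed here, so the counts above do not cover them.

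Levels are given as CPM, counts divided by the TMM-scaled library size. The 12 libraries held 16842824 to 28003010 estimated counts, of which 4894 to 11799 fell on protocadherin genes, so 3 counts in 1 library correspond to 0.105 to 0.182 CPM. Replicate 3 of NRF2 cells with DMSO lay farthest from its replicates (root mean square log2 distance of 0.465, against 0.255 to 0.350 in the other 11 libraries) and had the highest share of mitochondrial counts (7.30%, against 4.84 to 6.35%). Nfe2l2, which encodes NRF2, measured 101 to 103 CPM in EV and 281 to 352 CPM in NRF2 cells with DMSO, and 93.3 to 99.0 and 339 to 365 CPM with romidepsin. Of the lung markers, Krt8 and Krt18 had means of 1259 to 3674 CPM and Cdh1 of 227 to 417 CPM. The means of Nkx2-1, Sftpc, Sftpb and Napsa were at or below 0.317 CPM in every group. These data thus show keratin and Cdh1 but not the defining lung lineage genes.

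Single genes took 58.8% of all protocadherin counts, the gamma cluster 38.7%, the beta cluster 2.47% and the alpha cluster 0.0091%. Per kilobase of exon, the highest level in EV cells with DMSO was that of Pcdhgc3, a gamma gene found in many tissues, at 15.2 ± 2.02 CPM per kb (SD, n = 3). It was followed by Pcdh1 at 6.35 ± 0.235, Pcdh18 at 5.03 ± 0.416, Pcdhgb2 at 4.31 ± 0.539, Pcdh7 at 3.81 ± 0.327 and Pcdhgc4 at 3.22 ± 1.31 CPM per kb; from Pcdh18 on, neighbours in this order lay within their summed SDs. The same genes stood in another order in NRF2 cells with romidepsin. Pcdh1 came first at 28.4 ± 0.951 CPM per kb, then Pcdhgc3 at 12.3 ± 0.554 and Pcdhgc4 at 4.56 ± 0.303. Pcdh7 followed at 3.36 ± 0.0322, Pcdhgb2 at 1.38 ± 0.00672 and, last of these genes, Pcdh18 at 0.213 ± 0.0267 CPM per kb. Genes left out of this order lay between Pcdhgb2 and Pcdh18, such as Pcdhga10 at 0.647 CPM per kb. The alpha cluster was barely read: its 13 genes held 8 counts in all, 4 in EV and 4 in NRF2 cells with DMSO and none in the 6 romidepsin libraries, so no alpha gene could be tested.

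The first comparison asked how NRF2 cells differed from EV cells with DMSO. Pcdh18 had the lowest ratio of the tested protocadherins, Pcdh1 and Pcdh7 were higher, and inside the gamma cluster Pcdhga7, Pcdhga9 and Pcdhga10 were higher while Pcdhgb2 was lower. In all, 6 of the 29 tested members were higher and 7 lower in NRF2 cells; over all 13502 genes tested, 19.3% were higher and 16.9% lower (quasi-likelihood test of edgeR, Benjamini-Hochberg adjusted p under 0.05). The members' median log2 fold change was -0.27, against -0.01 for all genes. Both shares of members lie near the background, and 5 members were lower when DMSO replicate 2 of NRF2 cells was left out. As these are bulk samples, fewer cells of a type and less RNA per cell cannot be told apart.

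Among the delta-2 genes, Pcdh18 (ENSMUSG00000037892.13, GRCm38 chromosome 3, 49743296 to 49757325, minus strand) measured 29.2, 24.8 and 27.0 CPM in the EV libraries and 2.60, 2.63 and 2.54 CPM in the NRF2 libraries with DMSO. All NRF2 libraries were below all EV libraries, and the log2 fold change was -3.38 ± 0.10 (SE), a 10.4-fold lower level (edgeR adjusted p = 2e-13). Pcdh19, an X-linked gene in which loss of function causes an epilepsy, had 1.44, 1.18 and 1.0 CPM in EV and 0.344, 0.343 and 0.424 CPM in NRF2 libraries (log2 -1.70 ± 0.31; edgeR adjusted p = 0.00033). Its groups did not overlap. Pcdh10 (0.230 against 0.119 CPM) and Pcdh17 (0.131 against 0.104 CPM) were too low here for their differences to be told from the spread (edgeR adjusted p = 0.24 and 0.86).

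Of the delta-1 genes, Pcdh1 (chromosome 18, 38185914 to 38212053, minus strand), which is known from airway epithelium, measured 55.0, 58.2 and 54.3 CPM in EV and 140, 127 and 119 CPM in NRF2 libraries. Each NRF2 library had more than 2 times the level of each EV library, with a log2 difference of 1.21 ± 0.06 (edgeR adjusted p = 3.6e-11). Pcdh7 (chromosome 5, 57717967 to 58133230, plus strand) had 44.3, 39.3 and 37.7 CPM in EV and 67.3, 64.2 and 68.0 CPM in NRF2 libraries (log2 0.72 ± 0.06; edgeR adjusted p = 1.4e-07), again with no overlap. Pcdh9 did not pass the test (0.695 ± 0.143 against 0.891 ± 0.224 CPM; SD, n = 3).

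**Figure D1:**
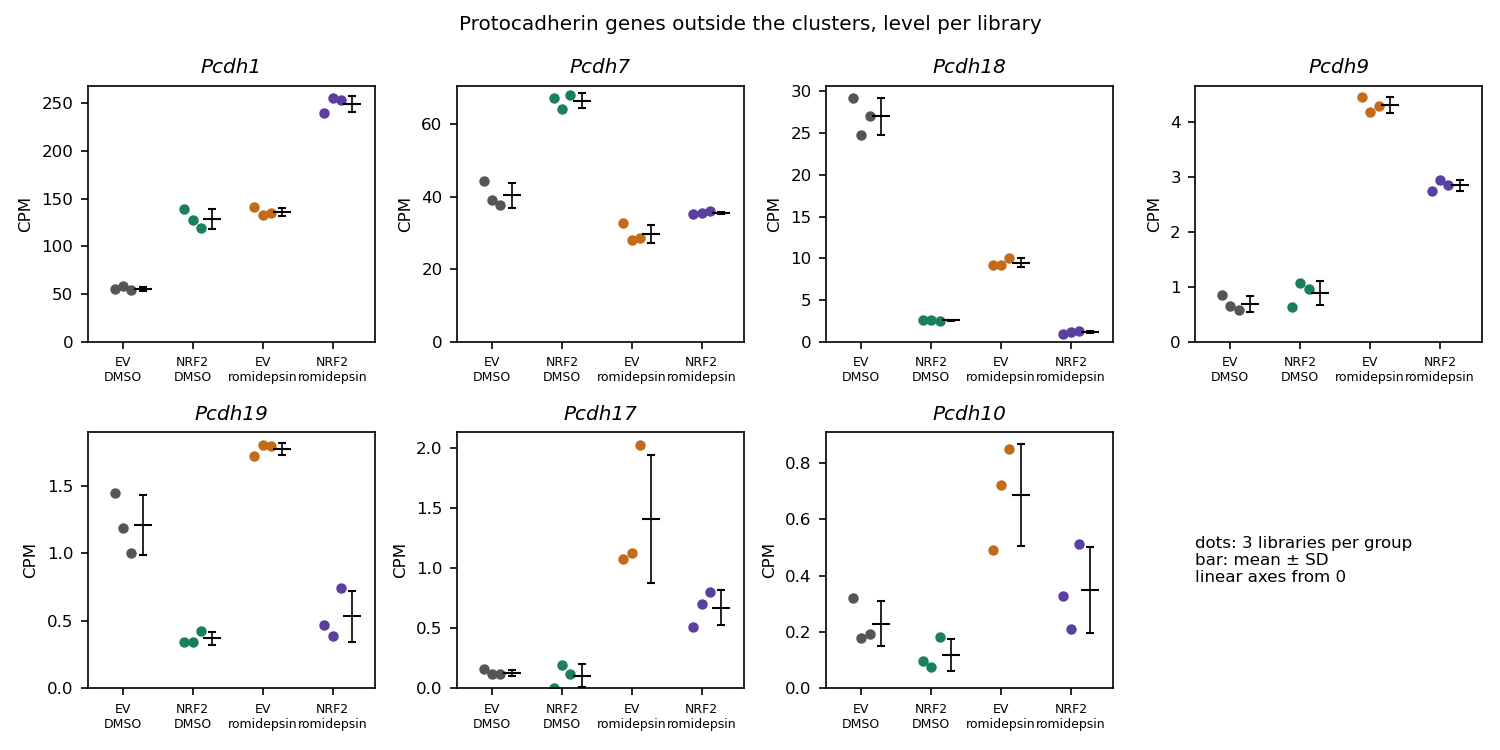
Level of each of the 7 tested single protocadherin genes in CPM (linear axes from 0) in the 3 libraries of each group; dots are libraries and bars are mean ± SD. Pcdh18 is highest in EV cells with DMSO and lowest in NRF2 cells with romidepsin, Pcdh1 the reverse, and Pcdh9 and Pcdh17 are high in the romidepsin groups.

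The gamma cluster lies on the plus strand of chromosome 18, from 37661793 to 37841873, and its genes share constant exons at the 3′ end. Of 31-base words in a gamma gene's transcripts, a median of 53.8% occur in no other gene listed, against 88.2% for beta genes, 35.9% for alpha genes and at least 99.8% for the single genes. How the counting divided reads of the shared exons among gamma genes is not stated, so values of single gamma genes are less certain than the cluster's sum. With DMSO the summed gamma level was 143 ± 8.13 CPM in EV and 185 ± 8.0 CPM in NRF2 cells (SD, n = 3), 1.29-fold higher.

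Pcdhga10 had the largest rise of the tested protocadherins in NRF2 cells: 0.961, 0.651 and 0.926 CPM in EV against 5.41, 4.72 and 5.39 CPM in NRF2 libraries, a log2 difference of 2.58 ± 0.17 (edgeR adjusted p = 3.3e-09). Its share of all gamma counts went from 0.596 ± 0.140% to 2.80 ± 0.264%. Pcdhga9 had 0.694, 0.947 and 0.501 CPM against 2.95, 2.13 and 2.30 CPM (log2 1.82 ± 0.27; edgeR adjusted p = 4.9e-05), and Pcdhga7 3.26, 3.08 and 2.43 CPM against 7.52, 6.58 and 6.79 CPM (log2 1.27 ± 0.21; edgeR adjusted p = 0.00014). In all 3 genes every NRF2 library was above every EV library. They are the 9th, 13th and 15th of the 22 variable exons in chromosomal order. The tested genes between them did not rise: Pcdhgb4, the 10th, had a log2 fold change of -0.01 ± 0.35, and Pcdhgb6, the 14th, of -0.32 ± 0.16, neither passing the test.

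Pcdhgc3 rose by less, from 88.9, 91.2 and 70.9 CPM to 112, 103 and 115 CPM (log2 0.40 ± 0.08; edgeR adjusted p = 0.00076). Pcdhgb2, the most abundant of the A- and B-type genes, was lower at 15.7, 17.1 and 15.3 CPM against 23.7, 21 and 18.4 CPM in EV cells (log2 -0.38 ± 0.09; edgeR adjusted p = 0.0023). Pcdhga11 was also called lower, on 39 counts in EV and 15 in NRF2 cells (edgeR adjusted p = 0.045). That call is not stable: without any of the 3 EV libraries or replicate 1 or 2 of the NRF2 libraries with DMSO its adjusted p was 0.070 to 0.24, and without replicate 2 or 3 of EV or 1 or 2 of NRF2 cells with romidepsin 0.058 to 0.062. The A- and B-type genes together gave 39.2 ± 3.85 CPM in EV and 40.8 ± 1.17 CPM in NRF2 cells (SD, n = 3), so the rise of 3 of them was not seen in their sum.

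In the beta cluster (chromosome 18, 37264938 to 37524479, plus strand), whose proteins have short tails without the constant part, 3 of 9 tested genes were lower in NRF2 cells: Pcdhb16, Pcdhb19 and Pcdhb22. Among all genes tested, 16.9% were lower, and a count of 9 genes is small for a comparison of shares. Pcdhb16 had 2.88, 2.49 and 2.70 CPM in EV and 1.38, 1.03 and 1.15 CPM in NRF2 libraries (log2 -1.19 ± 0.22; edgeR adjusted p = 0.00036). Pcdhb19 (log2 -1.12 ± 0.29) and Pcdhb22 (log2 -1.17 ± 0.32) had edgeR adjusted p-values of 0.0062 and 0.0081, and Pcdhb22 passed the test no longer without replicate 2 of NRF2 cells with DMSO (0.060). Pcdhb17, the most abundant beta gene in these cells, had 3.31 ± 0.394 and 2.94 ± 0.269 CPM (SD, n = 3; edgeR adjusted p = 0.54). The sum of the 22 beta genes was 15.9 ± 2.24 CPM in EV and 11.0 ± 0.237 CPM in NRF2 cells, 1.44-fold lower.

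**Figure D2:**
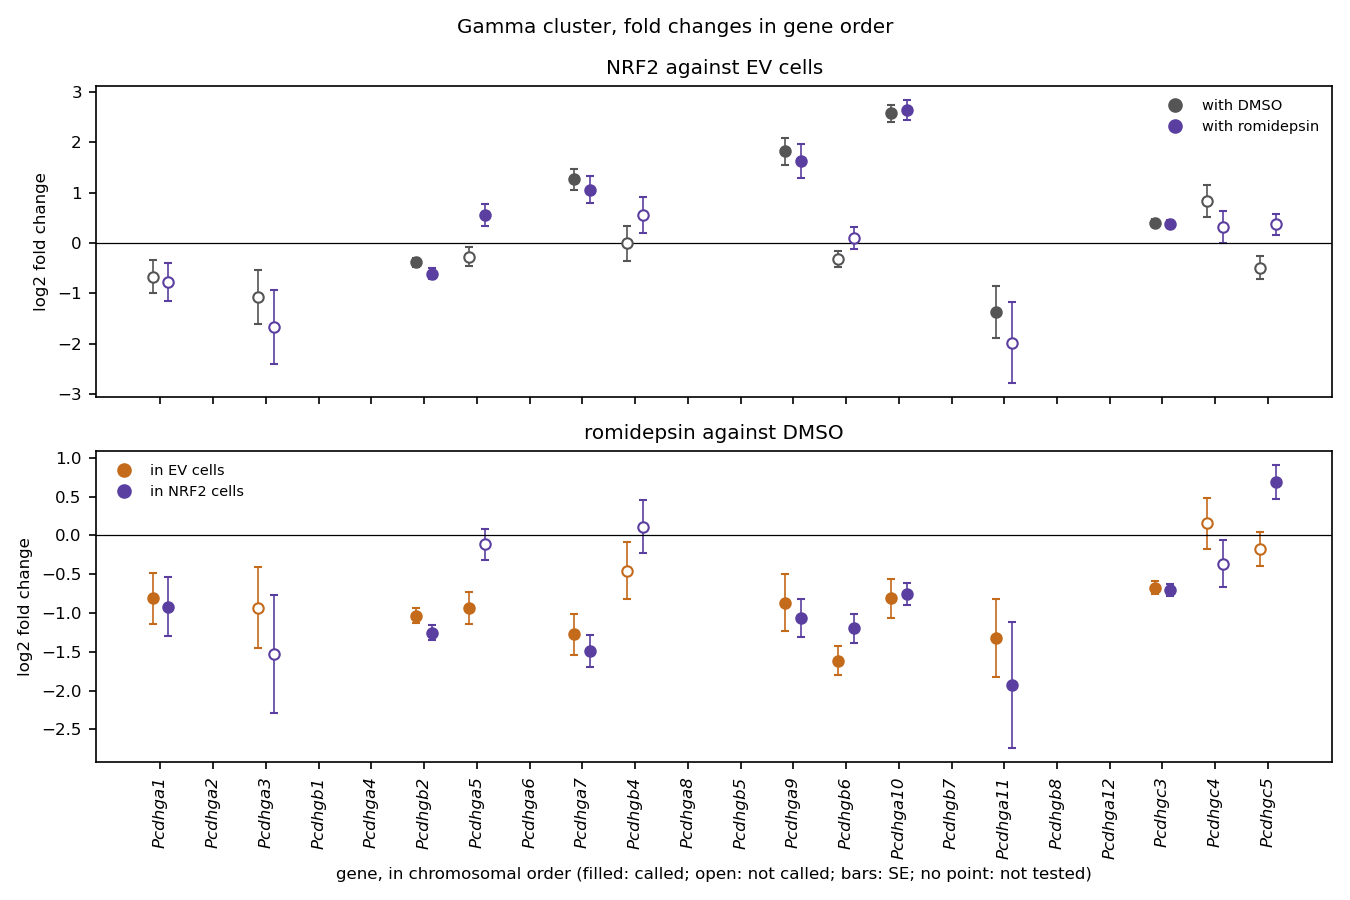
Log2 fold changes (± SE) of the 13 tested gamma genes in chromosomal order, above for NRF2 against EV cells and below for romidepsin against DMSO; filled points passed the test and genes without a point were not tested. Pcdhga7, Pcdhga9 and Pcdhga10 stand above 1 in the upper panel with both treatments, while most genes lie below 0 in the lower panel.

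The same comparison in cells with romidepsin gave 7 members higher and 7 lower in NRF2 cells, where 23.0% of all genes tested were higher and 22.4% lower (edgeR adjusted p under 0.05). The share lower is near the background, as is the share higher. The libraries of this comparison are not those of the comparison with DMSO. All 6 genes higher in NRF2 cells with DMSO (Pcdh1, Pcdh7, Pcdhga7, Pcdhga9, Pcdhga10 and Pcdhgc3) were among the 7 higher with romidepsin (85.7%). Of the 7 lower in each, 4 were shared (57.1%): Pcdh18, Pcdh19, Pcdhb16 and Pcdhgb2. None was called in opposite directions. The share of all genes tested that was called alike in both comparisons was not computed. These shared calls are therefore not set apart from those of other genes.

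Pcdh18 had 9.23, 9.15 and 10.1 CPM in EV and 0.982, 1.20 and 1.25 CPM in NRF2 libraries with romidepsin, a log2 difference of -3.05 ± 0.13 (edgeR adjusted p = 1.5e-11). Pcdhga10 had 0.442, 0.496 and 0.519 against 3.23, 2.99 and 2.97 CPM (log2 2.64 ± 0.20; edgeR adjusted p = 2.8e-08), so both genes were apart in all libraries with either treatment. Pcdhga7 was called higher (log2 1.06 ± 0.27; edgeR adjusted p = 0.004), but its groups overlapped with romidepsin. It had 0.737, 1.76 and 1.04 CPM in EV and 2.57, 3.02 and 1.65 CPM in NRF2 libraries. Pcdh1 was higher by 0.87 ± 0.05 and Pcdh7 by 0.26 ± 0.07 on the log2 scale (edgeR adjusted p = 2.1e-09 and 0.005). Pcdh9 was called lower with romidepsin only, at 4.47, 4.19 and 4.30 CPM in EV against 2.76, 2.95 and 2.85 CPM in NRF2 libraries (log2 -0.59 ± 0.16; edgeR adjusted p = 0.0052). Pcdh17 (1.08, 1.13 and 2.03 against 0.514, 0.703 and 0.799 CPM; edgeR adjusted p = 0.02) lost its call when replicate 3 of the EV libraries was left out (0.16), or replicate 1 or 2 of the NRF2 libraries (0.085 and 0.060). Pcdh10 (edgeR adjusted p = 0.041) lost its call without any of 6 libraries, at up to 0.21 when NRF2 replicate 2 was left out, and Pcdhga5 (0.041, higher) without any of 5, at up to 0.22 when the same library was left out.

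The next comparison set romidepsin against DMSO in EV cells. Beta genes fell together, A- and B-type gamma genes fell by about 2-fold in sum, and the single genes divided: Pcdh1, Pcdh9, Pcdh10, Pcdh17 and Pcdh19 rose and Pcdh7 and Pcdh18 fell. Of the 29 tested members, 5 were higher and 19 lower with romidepsin. Over all genes tested, 39.1% were higher and 37.4% lower (edgeR adjusted p under 0.05), so the members' share of lower calls lies above the background and that of higher calls below it. The members' median log2 fold change was -0.93, against 0.01 for all genes. The filter can keep a gene through the group in which it is high, so these counts describe the 29 tested genes, not all 69.

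The call of Pcdh10 in EV cells held under the 19 alternatives in which the gene was tested; asking for 1 CPM in 3 libraries left it untested. That of Pcdh19, at 1.44, 1.18 and 1.0 CPM with DMSO and 1.72, 1.80 and 1.79 CPM with romidepsin (log2 0.56 ± 0.24; edgeR adjusted p = 0.039), was lost when DMSO replicate 2 or 3 or any romidepsin replicate was left out (0.070 to 0.17). Scaled by library size alone, the median of all genes moved to 0.13 in EV and 0.15 in NRF2 cells with romidepsin, and no protocadherin call changed direction. The count of lower members then went from 19 to 17 in both: Pcdhga1 (edgeR adjusted p = 0.072) and Pcdhga9 (0.078) lost their calls in EV cells, and Pcdhga1 (0.076) and Pcdhga11 (0.052) in NRF2 cells.

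In the beta cluster 8 of 9 tested genes fell in EV cells, where 37.4% of all genes tested fell. The median log2 fold change of the 9 was -1.86. Pcdhb17 went from 3.74, 2.96 and 3.24 CPM to 0.933, 0.631 and 1.27 CPM (log2 -1.81 ± 0.23; edgeR adjusted p = 1.4e-06) and Pcdhb16 from 2.88, 2.49 and 2.70 CPM to 0.737, 0.901 and 0.566 CPM (log2 -1.86 ± 0.24; edgeR adjusted p = 1.2e-06). In both genes all libraries with romidepsin were below all with DMSO. Pcdhb9 and Pcdhb20 had 35 and 41 counts over the 3 DMSO libraries and 5 and 8 over the 3 romidepsin libraries. Pcdhb14 was the exception: replicate 1 with romidepsin, at 0.737 CPM, lay within the DMSO libraries (0.651 to 0.771 CPM) while the other two had 0.225 and 0.236 CPM (edgeR adjusted p = 0.089, and 0.0064 without that replicate). The sum of all 22 beta genes was 18.4, 15.2 and 14.0 CPM with DMSO and 4.57, 3.92 and 5.43 CPM with romidepsin, 3.42-fold lower.

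In the gamma cluster 9 of 13 tested genes fell in EV cells, where 37.4% of all genes tested fell. The median log2 fold change of the 13 was -0.87. The A- and B-type genes (19 rows) together went from 39.2 ± 3.85 to 18.3 ± 0.867 CPM, 2.15-fold lower, while Pcdhgc3, Pcdhgc4 and Pcdhgc5 together went from 104 ± 5.26 to 74.6 ± 1.14 CPM, 1.39-fold lower (SD, n = 3). Pcdhgb2 had 23.7, 21 and 18.4 CPM with DMSO and 10.3, 10.4 and 10.1 CPM with romidepsin (log2 -1.03 ± 0.09; edgeR adjusted p = 1.2e-08). Pcdhgb6 had 3.47, 3.55 and 3.39 CPM against 1.08, 1.08 and 1.23 CPM (log2 -1.61 ± 0.19; edgeR adjusted p = 3.8e-07). In neither gene did the groups overlap. Pcdhgc3, whose product is known to bind Axin1 and dampen Wnt signalling, had 88.9, 91.2 and 70.9 CPM against 54.8, 50.8 and 51.4 CPM (log2 -0.67 ± 0.08; edgeR adjusted p = 1.1e-06). Pcdhgc4 and Pcdhgc5 missed the threshold (log2 0.16 ± 0.33 and -0.17 ± 0.22).

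Some gamma calls in EV cells rest on few libraries. That of Pcdhga10 was lost without replicate 3 with DMSO (edgeR adjusted p = 0.064), that of Pcdhga9 without replicate 1 or 2 with DMSO or 1 or 3 with romidepsin (0.073 to 0.16), that of Pcdhga11 without replicate 1 or 2 with DMSO or 1 with romidepsin (0.052 to 0.11), and that of Pcdhga1 without any of 5 libraries (up to 0.15 without replicate 2 with romidepsin). All 4 stayed negative in every alternative run.

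**Figure D3:**
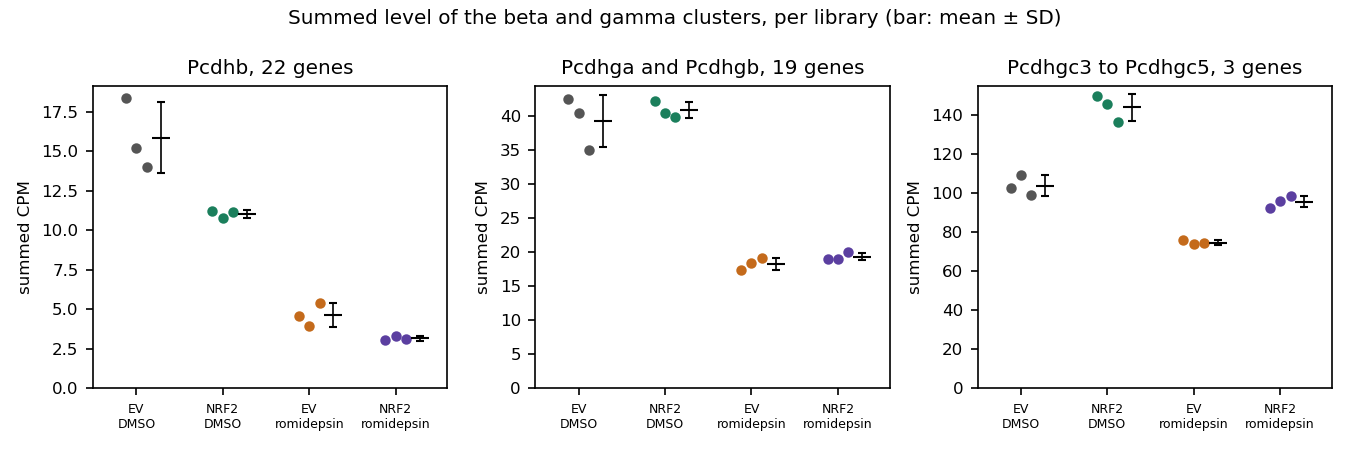
Summed level in CPM (linear axes from 0) of the 22 beta genes, the 19 A- and B-type gamma genes and the 3 C-type gamma genes in each of the 12 libraries; dots are libraries and bars are mean ± SD. The romidepsin libraries lie below the DMSO libraries of the same cells in all 3 panels, and NRF2 cells lie above EV cells in the C-type panel and below them in the beta panel.

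Among the single genes Pcdh9 and Pcdh17 had the largest rises of the tested protocadherins. Pcdh9 (chromosome 14, 93013410 to 93890679, minus strand) went from 0.855, 0.651 and 0.579 CPM to 4.47, 4.19 and 4.30 CPM, a log2 difference of 2.65 ± 0.20 (edgeR adjusted p = 1.5e-09). Pcdh17 (chromosome 14, 84443563 to 84539002, plus strand), often silenced by methylation in tumours, went from 0.160, 0.118 and 0.116 CPM to 1.08, 1.13 and 2.03 CPM (log2 3.38 ± 0.49; edgeR adjusted p = 6.3e-06). Both were apart in all libraries; the DMSO libraries of Pcdh17 held about as much as 3 counts. Pcdh10 (chromosome 3, 45378398 to 45435623, plus strand), also known as a target of methylation in tumours, had 0.320, 0.178 and 0.193 CPM against 0.491, 0.721 and 0.850 CPM (log2 1.57 ± 0.44; edgeR adjusted p = 0.0034).

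Pcdh1 rose from 55.0, 58.2 and 54.3 CPM to 141, 133 and 135 CPM (log2 1.29 ± 0.06; edgeR adjusted p = 9.2e-13). Pcdh18 fell from 29.2, 24.8 and 27.0 CPM to 9.23, 9.15 and 10.1 CPM (log2 -1.51 ± 0.09; edgeR adjusted p = 3.6e-11), and Pcdh7 from 44.3, 39.3 and 37.7 CPM to 32.7, 28 and 28.6 CPM (log2 -0.44 ± 0.07; edgeR adjusted p = 1.4e-05). The libraries of each of these 3 genes were apart. Markers of neurons, in which these genes are best known, moved too: of 8 listed, 5 were tested and 5 rose in EV cells, their summed level going from 42.3 to 44.9 CPM with DMSO to 211 to 214 CPM with romidepsin. Rbfox3, which defines mature neurons, was at 0 in 3 groups and at a mean of 0.0542 CPM in NRF2 cells with romidepsin. Of 8 fibroblast, 5 leukocyte and 4 endothelial markers 3, 3 and 2 were tested, of which 3, 3 and 1 rose in EV cells; the leukocyte sum went from 0.231 to 0.474 CPM with DMSO to 2.41 to 3.49 CPM with romidepsin. The fibroblast sum was 3354 to 3508 CPM with DMSO and 6077 to 6155 CPM with romidepsin. Of 10 lung markers 6 were tested, and 5 rose and 1 fell. Their sum was 3748 to 3785 CPM with DMSO and 6357 to 6502 CPM with romidepsin. Among all genes tested, 39.1% rose in EV cells. The part of these markers in the result was not tested.

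In NRF2 cells romidepsin gave 5 members higher and 19 lower, where 40.5% of all genes tested were higher and 39.3% lower (edgeR adjusted p under 0.05). The members' median log2 fold change was -1.07, against 0.01 for all genes. As in EV cells, the share lower was above the background and that higher below it. These libraries are not those of the EV comparison: 18 of the 19 members lower in each were lower in both (94.7%), 4 of the 5 higher in each were higher in both (80%: Pcdh1, Pcdh9, Pcdh10 and Pcdh17), and none was called in opposite directions. Shares of all genes tested that were called alike in both lines were not computed, so this accord is not shown to be particular to the members. The count of higher members fell from 5 to 3 without replicate 2 of NRF2 cells with DMSO, which cost Pcdh10 (edgeR adjusted p = 0.099) and Pcdhgc5 (0.060) their calls.

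All 9 tested beta genes, of 22 listed, fell in NRF2 cells, where 39.3% of all genes tested fell. The median log2 fold change of the 9 was -1.88. As in EV cells, the filter can keep a gene through the group in which it is high. The count therefore describes the tested beta genes only. Pcdhb17 went from 3.24, 2.85 and 2.73 CPM to 0.888, 0.598 and 0.970 CPM (log2 -1.88 ± 0.24; edgeR adjusted p = 1.1e-06), and Pcdhb14, which had not passed in EV cells, from 1.23, 1.10 and 0.909 CPM to 0.421, 0.176 and 0.114 CPM (log2 -2.17 ± 0.45; edgeR adjusted p = 0.00024). Both were apart in all libraries. Pcdhb9 had 42 counts over the 3 DMSO libraries and 3 over the 3 romidepsin libraries. The weaker calls were Pcdhb18, whose adjusted p was 0.0502 without replicate 3 with DMSO, and Pcdhb22, at 0.14 without replicate 1 with DMSO, 0.063 without replicate 1 and 0.053 without replicate 3 with romidepsin. The beta sum was 11.2, 10.8 and 11.1 CPM with DMSO and 3.04, 3.30 and 3.14 CPM with romidepsin, 3.49-fold lower.

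Of the 13 tested gamma genes 8 fell and Pcdhgc5 rose in NRF2 cells, where 39.3% of all genes tested fell and 40.5% rose. The A- and B-type genes together went from 40.8 ± 1.17 to 19.3 ± 0.553 CPM, 2.11-fold lower, and the C-type genes from 144 ± 6.95 to 95.6 ± 2.97 CPM, 1.51-fold lower (SD, n = 3). Pcdhga10, high in NRF2 cells, had 5.41, 4.72 and 5.39 CPM with DMSO and 3.23, 2.99 and 2.97 CPM with romidepsin (log2 -0.75 ± 0.14; edgeR adjusted p = 9.4e-05). Pcdhga7 had 7.52, 6.58 and 6.79 CPM against 2.57, 3.02 and 1.65 CPM (log2 -1.49 ± 0.21; edgeR adjusted p = 4.9e-06). In both genes the groups did not overlap. Pcdhgc5 had 1.72, 1.18 and 1.51 CPM against 2.01, 2.32 and 2.74 CPM (log2 0.69 ± 0.22; edgeR adjusted p = 0.0087). The calls of Pcdhga1 and Pcdhga11 (edgeR adjusted p = 0.039 and 0.037) were lost on leaving out any of 6 and any of 4 libraries, at up to 0.21 without replicate 2 with romidepsin and 0.13 without replicate 3 with DMSO.

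Of the single genes Pcdh9 went from 0.639, 1.07 and 0.970 CPM to 2.76, 2.95 and 2.85 CPM in NRF2 cells (log2 1.66 ± 0.20; edgeR adjusted p = 4.9e-07). Pcdh17 went from 0, 0.190 and 0.121 CPM, or 7 counts in all, to 0.514, 0.703 and 0.799 CPM (log2 2.54 ± 0.57; edgeR adjusted p = 0.00053). Pcdh1 rose from 140, 127 and 119 CPM to 240, 255 and 254 CPM (log2 0.95 ± 0.05; edgeR adjusted p = 2e-11). Each was apart in all libraries. Pcdh18 fell again, from 2.60, 2.63 and 2.54 CPM to 0.982, 1.20 and 1.25 CPM (log2 -1.18 ± 0.15; edgeR adjusted p = 1.4e-06), and Pcdh7 from 67.3, 64.2 and 68.0 CPM to 35.3, 35.5 and 36.0 CPM (log2 -0.90 ± 0.07; edgeR adjusted p = 5.7e-10). Pcdh10 rose by 1.52 ± 0.58 on the log2 scale (edgeR adjusted p = 0.022), a call lost without replicate 1 (0.057) or 2 (0.099) with DMSO or replicate 3 with romidepsin (0.094). Pcdh19 did not pass the test (0.370 ± 0.0467 against 0.532 ± 0.186 CPM; SD, n = 3).

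**Figure D4:**
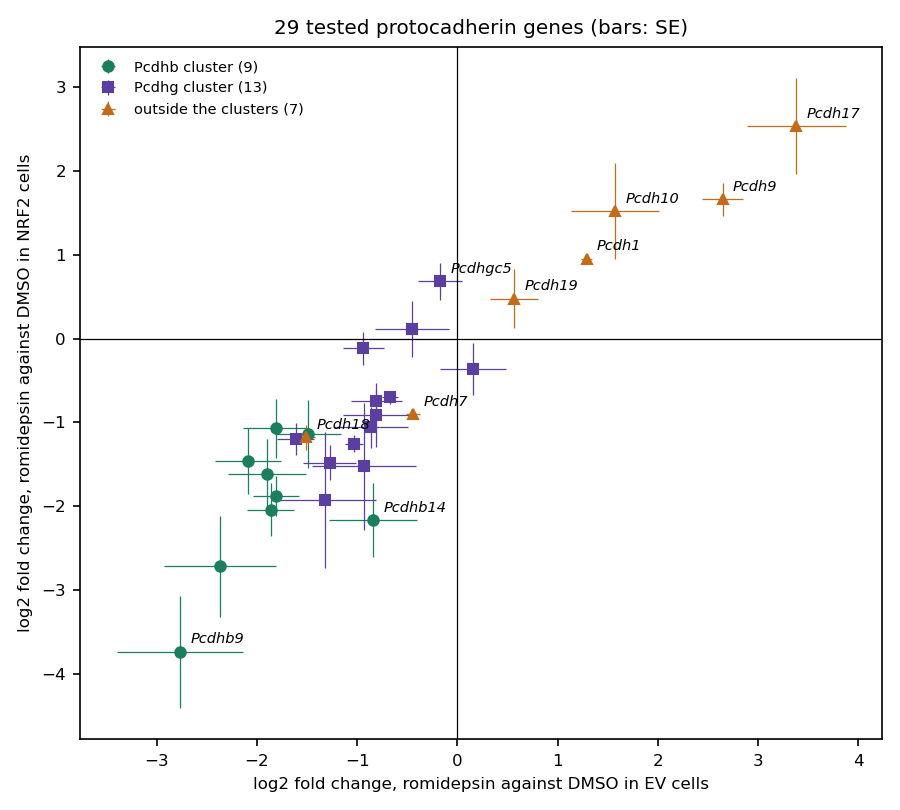
Log2 fold change with romidepsin of the 29 tested protocadherin genes in EV cells (horizontal axis) and NRF2 cells (vertical axis), with SE bars; shapes mark the beta cluster (9), the gamma cluster (13) and the genes outside the clusters (7). Beta genes lie in the lower left, most gamma genes nearer 0 on the same side, and Pcdh1, Pcdh9, Pcdh10 and Pcdh17 in the upper right.

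Whether romidepsin acted differently in NRF2 and EV cells was read from the interaction term, the log2 fold change in NRF2 cells minus that in EV cells. It called 0 of 29 members higher and 3 lower, against 5.53% and 10.2% of all genes tested (edgeR adjusted p under 0.05), so the share lower is at the background. At an unadjusted p under 0.05 edgeR gave 2 higher and 3 lower, and DESeq2 called 0 higher and 2 lower. The 3 genes all belong to the delta-1 group: Pcdh7 (-0.46 ± 0.09; edgeR adjusted p = 0.0031), which fell more in NRF2 cells, and Pcdh1 (-0.33 ± 0.08; edgeR adjusted p = 0.0072) and Pcdh9 (-0.98 ± 0.30; edgeR adjusted p = 0.033), which rose less. The Pcdh9 call was lost without any of 9 of the 12 libraries, at 0.054 to 0.13. Pcdh18 did not pass (0.33 ± 0.18; edgeR adjusted p = 0.30), and no beta gene did either, the closest being Pcdhb14 (-1.32 ± 0.65; edgeR adjusted p = 0.19). Pcdhga5 (0.82 ± 0.29; edgeR adjusted p = 0.061) passed when romidepsin replicate 3 of NRF2 cells was left out (0.049), and Pcdhgc5 (0.86 ± 0.31; edgeR adjusted p = 0.070) when romidepsin replicate 1 of EV cells was (0.045).

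The C-type genes varied among replicates in a way their sum did not. Pcdhgc4, which is needed for the survival of neurons, measured 11.6, 16.5 and 26.0 CPM in EV and 36.5, 41.2 and 19.9 CPM in NRF2 cells with DMSO. Replicate 3 was the highest EV library and the lowest NRF2 library; in the same EV library Pcdhgc3 was the lowest of its group (70.9 CPM) and in the same NRF2 library the highest (115 CPM). Pcdhgc3 and Pcdhgc4 summed to 100.5, 107.7 and 96.9 CPM in EV and 148.1, 144.7 and 134.8 CPM in NRF2 cells. The NRF2 difference of Pcdhgc4 with DMSO missed the threshold (log2 0.84 ± 0.32; edgeR adjusted p = 0.069), but passed it without replicate 3 of EV cells (0.014) or of NRF2 cells (0.012). The part of the counting of shared exons in this was not tested.

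**Figure D5:**
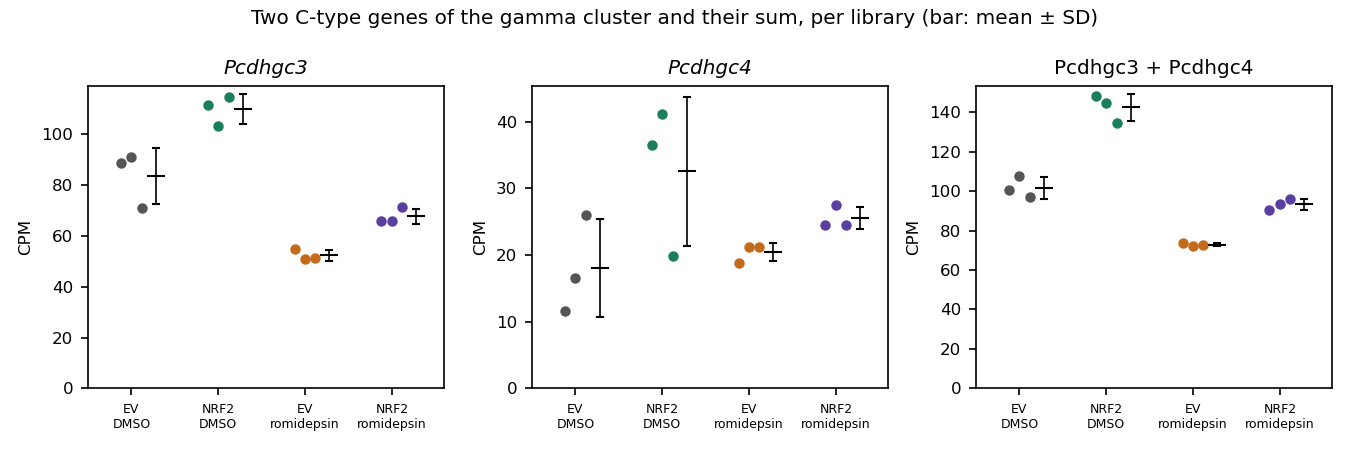
Levels in CPM (linear axes from 0) of Pcdhgc3, Pcdhgc4 and their sum in each library; dots are libraries and bars are mean ± SD. Pcdhgc4 spreads over 11.6 to 26.0 CPM in EV cells and 19.9 to 41.2 CPM in NRF2 cells with DMSO, while the sums stay within 96.9 to 107.7 and 134.8 to 148.1 CPM.

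Of the 6 reported genes that did not pass the filter (Pcdh15, Pcdhb21, Pcdhga2, Pcdhga12, Pcdhgb5 and Pcdhgb7), each held 50 to 70 counts over the 12 libraries. Pcdhb21 had means of 0.497 CPM with DMSO and 0.141 CPM with romidepsin in EV cells, and Pcdhgb5 of 0.355 and 0.0928 CPM. In a fit without the filter these were the only ones of the 6 called, with edgeR adjusted p-values of 0.021 and 0.043, and Pcdhgb5 was also called in NRF2 cells (0.356 against 0.0469 CPM; 0.0085). These 3 calls were all lower with romidepsin.

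Of the 5 tested genes between or next to the clusters on chromosome 18, 3 rose with romidepsin in EV cells (Taf7, Diaph1 and Hdac3) and Zmat2 fell. Among all genes tested, 39.1% rose and 37.4% fell. Taf7, a subunit of the general transcription factor TFIID that lies between the beta and gamma clusters on the other strand, went in EV cells from 4.54 ± 0.375 CPM with DMSO to 7.66 ± 0.599 CPM with romidepsin (log2 0.75 ± 0.11; edgeR adjusted p = 5.7e-06) and by 0.59 ± 0.10 in NRF2 cells. Diaph1, an actin-nucleating formin just beyond the gamma cluster, rose with romidepsin by 0.47 ± 0.05 in EV and 0.52 ± 0.04 in NRF2 cells on the log2 scale. Hdac3, one of the deacetylases romidepsin inhibits, rose by 0.13 ± 0.06 in each. Zmat2, before the alpha cluster, fell by 0.27 ± 0.08 in EV and 0.39 ± 0.07 in NRF2 cells, and Hars2 next to it did not pass the test in either.

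Of 14 genes that control promoter choice in the clusters, 12 were lower with romidepsin in EV cells and 12 in NRF2 cells, where 37.4% and 39.3% of all genes tested were lower, with median log2 fold changes of -0.65 and -0.72 against 0.01 for all genes. Ctcf, the DNA-binding protein that joins the cluster promoters to their enhancers, went from 123 to 54.9 CPM in EV and from 119 to 41.6 CPM in NRF2 cells (log2 -1.17 and -1.52; edgeR adjusted p = 8.6e-13 and 2.2e-14). The cohesin subunit genes Stag1 (log2 -1.51 and -1.79) and Rad21 (log2 -1.08 and -1.33) fell as well, while Smc3, another cohesin subunit, missed the threshold (log2 0.21 and 0.05). Dnmt3b, a DNA methyltransferase known to methylate cluster promoters, went against the majority in NRF2 cells, rising by 0.74 on the log2 scale (edgeR adjusted p = 0.00012). Between NRF2 and EV cells with DMSO 2 of the 14 were higher and 2 lower, against 19.3% and 16.9% of all genes tested.

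Other cadherins did not share 1 direction. For comparison, 39.1% of all genes tested rose and 37.4% fell with romidepsin in EV cells, and 40.5% and 39.3% in NRF2 cells. With DMSO, 19.3% of all genes were higher and 16.9% lower in NRF2 than in EV cells. Of 15 classical and type II cadherins 9 were tested, and 3 rose and 5 fell with romidepsin in EV cells, 3 and 6 in NRF2 cells. Cdh2 (N-cadherin) had log2 fold changes of -1.26 and -1.41, and Cdh24 of 1.40 and 1.57. Of 15 atypical cadherins 8 were tested, and 6 rose and 1 fell in EV cells, 7 and 1 in NRF2 cells. Fat4, a giant cadherin of the Hippo pathway, rose by 3.50 and 3.41 on the log2 scale, from means of 0.300 and 0.279 CPM to 3.22 and 2.95 CPM, and Clstn1 fell (log2 -0.63 and -0.41). Between NRF2 and EV cells with DMSO 3 classical cadherins were higher and 2 lower, and 3 atypical ones higher and 2 lower.

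Partners inside the cell were mixed too. The shares of all genes tested were again 39.1% higher and 37.4% lower with romidepsin in EV cells, and 40.5% and 39.3% in NRF2 cells. For NRF2 against EV cells with DMSO they were 19.3% and 16.9%. Of 10 genes of the WAVE complex and of kinases bound by protocadherin tails, 3 rose and 4 fell with romidepsin in EV cells and 3 rose and 5 fell in NRF2 cells; with DMSO 2 were higher and 3 lower in NRF2 than in EV cells. Cyfip2, also of the WAVE complex, had the largest differences: 3.20 CPM in EV and 0.221 CPM in NRF2 cells with DMSO (log2 -3.92; edgeR adjusted p = 1.8e-07), and 10.2 and 3.58 CPM with romidepsin. Nckap1, a further subunit of that complex, fell with romidepsin (log2 -0.97 and -1.19). Of the 4 tested catenins, which link classical cadherins to actin, 3 rose and 1 fell in EV cells with romidepsin and 2 rose and 1 fell in NRF2 cells; Ctnnd1 was the one that fell (log2 -0.49 and -0.54).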

How the data were processed

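Poly-A RNA was sequenced in 12 libraries of mouse KP1 cells, 3 in each of 4 groups. The authors counted with kallisto 0.44.0 on build GRCm38 after bcl2fastq 2.19, per the submitters' processing notes, and deposited estimated counts per gene symbol, all whole numbers. A second deposited table of normalized values was not used. The members, gene lists and tests were chosen with earlier results of these data known. All Pcdh rows with 50 or more counts are accounted for and may be named; of other lists, at most 4 called members, taken by size of change among those with a mean of 1 CPM or more, and the called member most against its list's majority.

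Genes were filtered with the default filter of edgeR 4.0.16 (R 4.3.3) on the 4 groups, which left 13502, and tested with its quasi-likelihood test (robust, TMM factors, two-sided, 8 residual degrees of freedom, prior count 0.125) in 1 fit of all 12 libraries. P-values were adjusted by Benjamini-Hochberg across the 13502 genes. Standard errors were derived from the F statistic. Cluster sums and lists were given no test. The steps were tested on simulated data. Alternatives were RLE and library-size scaling, no filter, a limit of 1 CPM in 3 libraries, limma-voom (limma 3.58.1), DESeq2 1.42.0, groups compared alone, a replicate block, an adjusted p under 0.01, at least 2-fold, and leaving out each library. Positions came from GENCODE M21 (68 of 69 symbols matched once), promoters from RefSeq GRCm38.p6. The floor of 3 counts covers counting error only.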

Additional observations from a re-analysis of the deposited data

Results flagged for a closer look

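The effect of romidepsin differed between NRF2 and EV cells for 3 of 29 protocadherin genes by the interaction term of edgeR, a share near the 10.2% of all genes tested that were called lower. The log2 fold change in NRF2 cells minus that in EV cells was -0.33 for Pcdh1 (adjusted p = 0.0072), -0.46 for Pcdh7 (adjusted p = 0.0031) and -0.98 for Pcdh9 (adjusted p = 0.033). The Pcdh1 and Pcdh7 calls held under all 19 alternatives, with adjusted p-values up to 0.026 and 0.012; that of Pcdh9 was lost under 12 of 19, with adjusted p-values up to 0.13.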

How the results depend on the processing

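Of 2799 values of the 29 tested genes under the alternatives, 2679 (95.7%) kept their direction and side of the threshold, 98 lost a call, 22 gained one and 0 reversed. Asking for at least 2-fold left 3 members higher with romidepsin in NRF2 cells, 3 higher in NRF2 cells with romidepsin, and 0 lower for the interaction. Leaving out 1 library gave 3 to 5 members higher with romidepsin in NRF2 cells (3 without replicate 2 of NRF2 cells with DMSO) and 0 to 1 higher for the interaction (1 without replicate 1 of EV or replicate 3 of NRF2 cells with romidepsin). With library-size scaling alone the log2 ratio with romidepsin was -1.66 for the beta sum in NRF2 cells (-1.80 with TMM). For the gamma sum it was -0.50 in EV and -0.54 in NRF2 cells (-0.62 and -0.69 with TMM). Only the scaling differed between these values. It moved the median log2 fold change of all genes from 0.011 to 0.13 in EV and from 0.015 to 0.15 in NRF2 cells. The cause of the other changes was not tested. With the replicate number as a block, 6 members were higher and 6 lower in NRF2 cells with DMSO, 4 and 18 with romidepsin in EV cells, 5 and 18 in NRF2 cells, 6 and 6 in NRF2 cells with romidepsin, and 0 and 2 for the interaction. Same-numbered libraries correlated by -0.12 to 0.063 in their deviations from the group means, so the numbers do not pair them. Depth limits the genes near the floor of 0.105 to 0.182 CPM, such as Pcdh10 and Pcdh17 with DMSO and Pcdhb9 with romidepsin. The alpha cluster, with 8 counts in all, was left untested.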
